A study of Homo sapiens with 9 samples.

Results

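The histone genes are the genes that encode the proteins around which DNA is wound in chromatin, and 71 of the 17687 genes measured by array were histone genes. They were chosen by gene symbol: the linker histones numbered H1, the clustered H2A, H2B, H3 and H4 genes (H2AC, H2BC, H3C and H4C), the variants H2AX, H2AJ, H2AZ1 and H2AZ2, and the genes whose symbols begin with H3-. Each of the 71 had 1 transcript cluster, the set of probes that the array design assigns to a gene. By symbol, 61 were clustered, replication-dependent genes, namely 6 H1, 14 H2A, 17 H2B, 9 H3 and 15 H4 genes. The other 10, called variants here, were H1-7, H1-8, H1-10, H2AJ, H2AX, H2AZ1, H2AZ2, H3-3B, H3-4 and H3-5. No filter on low values was applied, so all 71 were tested. Copies of clustered histone genes are nearly identical in sequence and may share probes, so the value of any single copy is uncertain and neighbouring copies are not independent readings.

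The cells were HepG2, an established human liver cancer line. In 3 groups of 3 arrays, the cells were untreated, given recombinant SPARC at 200 ng/ml or given it at 800 ng/ml, and RNA was taken at 24 h. SPARC is a secreted glycoprotein of the extracellular matrix. Total RNA was labelled with biotin. Whether labelling was primed from poly(A) tails, which most clustered histone messages lack, is not given in the sources used here, and nor is whether replicates were separate cultures, so p-values reflect the spread among these arrays alone, and that spread could be technical.

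Clustered histone genes are transcribed in S phase, when newly made DNA needs new histones. Their messages have no introns and end in a stem-loop, bound by SLBP, instead of a poly(A) tail, and the coactivator NPAT, a target of cyclin E and CDK2, switches the genes on in nuclear bodies around the clusters. Variants are transcribed outside S phase as well, mostly as polyadenylated messages, and are placed into chromatin by their own chaperones: H2A.Z near gene starts, H3.3 at active genes and telomeres, and H2AX throughout the genome, where it is phosphorylated beside DNA breaks.

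The promoters of these genes carry short elements, some of which differ between the families. RefSeq promoter windows of assembly GRCh38.p14, each with 250 bases before and 50 after a start site, were used. They were matched by gene identifier to 66 of the 71 genes, which had 70 windows. The 5 not matched were H2AC12, H3-5, H3C11, H4C1 and H4C3. Both strands were searched. The 4 motifs were the TATA box (TATAAA), the CCAAT box (CCAAT), the octamer ATTTGCAT, which is the site of the POU factor Oct-1 in H2B promoters, and AAACACA, the H1 box of linker histone promoters. Each motif was counted on its own, and overlaps between motifs were not removed. Below are the 150 bases before the start site for a member of each clustered family that was high at 200 ng/ml. Those of H2AZ2 follow, a variant that lay below untreated cells there only when untreated replicate 2, described below, was left out. Each motif match is in capitals.
H1-4, chr6:26156179-26156328, plus strand: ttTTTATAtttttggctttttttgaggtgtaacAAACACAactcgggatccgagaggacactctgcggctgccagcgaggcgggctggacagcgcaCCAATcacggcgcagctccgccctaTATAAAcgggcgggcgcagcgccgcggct
H2AC14, chr6:27814778-27814927, minus strand: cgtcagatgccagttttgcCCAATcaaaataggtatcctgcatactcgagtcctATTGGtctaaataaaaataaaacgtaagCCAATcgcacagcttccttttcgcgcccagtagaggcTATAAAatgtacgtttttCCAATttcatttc
H2BC14, chr6:27814872-27815021, plus strand: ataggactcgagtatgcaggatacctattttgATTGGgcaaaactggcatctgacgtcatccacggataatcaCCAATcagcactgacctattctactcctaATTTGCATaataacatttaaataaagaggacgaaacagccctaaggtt
H3C10, chr6:27809901-27810050, plus strand: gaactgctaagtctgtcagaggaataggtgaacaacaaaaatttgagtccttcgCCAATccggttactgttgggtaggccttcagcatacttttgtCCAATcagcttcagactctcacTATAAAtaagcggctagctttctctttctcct
H4C14, chr1:149832507-149832656, plus strand: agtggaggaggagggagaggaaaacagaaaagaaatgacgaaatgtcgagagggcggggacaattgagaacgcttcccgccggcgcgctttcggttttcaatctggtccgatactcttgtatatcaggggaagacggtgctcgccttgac
H2AZ2, chr7:44848088-44848237, minus strand: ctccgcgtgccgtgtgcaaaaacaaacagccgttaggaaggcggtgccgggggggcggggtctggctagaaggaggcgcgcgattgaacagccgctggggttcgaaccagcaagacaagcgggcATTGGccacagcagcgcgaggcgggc

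H1-4 had all of TATA, CCAAT and H1 box, with the H1 box beginning 117 bases, CCAAT 54 bases and a TATA box 29 bases before the start site. H2AC14 and H2BC14 face away from each other, and their windows overlapped by 256 bases. The octamer stood 48 bases before the H2BC14 start and the TATA box 31 bases before the H2AC14 start. H3C10 had CCAAT at 96 and 54 bases and TATA at 32 bases. The stretch of H4C14 held none of the 4 motifs, and H2AZ2 held a single CCAAT box. Over the clustered genes, 41 of 60 windows (68.33%) held TATAAA, against 11.53% of 35116 windows of all genes, and 50 (83.33%) held CCAAT, against 34.61%. CCAAT was in every H1, H2A, H2B and H3 window and in 3 of 13 H4 windows. The octamer was in 15 of 19 H2B and 8 of 13 H2A windows and in 0 H1, H3 and H4 windows, against 1.774% of all. Like H2AC14 and H2BC14, other H2A and H2B pairs had overlapping windows, by 253 to 286 of 300 bases. Since both strands were searched, a match there could be counted for both genes, so the H2A and H2B counts are not separate. The H1 box was in 6 of 6 H1 windows and in 1 of 13 H2A windows, against 5.644% of all. Of the 10 variant windows, 5 held TATAAA, 8 CCAAT, 1 the octamer and 1 the H1 box. These are matches of letters, not measured binding. The H4C14 and H4C15 windows were identical over 300 of 300 bases and those of H4C11 and H4C12 over 295, which shows how alike the copies can be.

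Array medians over all genes lay between 5.41 and 5.55, on a scale read as log2. Untreated replicate 2 stood apart: its correlation across genes with the other arrays was 0.891 to 0.920, against at least 0.979 among the other 8, and its spread was narrower (SD 1.67 against 1.91 to 2.003). Over all genes, those with a mean signal of 7 or above read low on it and dimmer ones high (median deviations -0.76 and 0.21). The 33 dimmer clustered histone genes read low on it as well (-0.38). Deviations are from each gene's mean over the other 8 arrays. The counts and medians against untreated cells are therefore given with and without this array, and single genes where it matters. Summed hepatocyte marker signals (9 of 10 measured, linear scale) were 18111 to 20962 in untreated cells, 19309 to 21173 at 200 ng/ml and 20850 to 21095 at 800 ng/ml, and ALB, the albumin gene, had log2 signals of 12.14 to 12.46 over the 9 arrays. Summed neural and glial markers (7 of 8 measured) were 119 to 218, 125 to 144 and 144 to 732 in the same order, high on 800 ng/ml replicates 2 and 3 (708 and 732) and not on replicate 1 (144). Fibroblast markers (7 of 8) summed to 212 to 510, 248 to 301 and 204 to 213, endothelial markers (6 of 6) to 123 to 245, 135 to 140 and 119 to 156, and blood markers (6 of 7) to 2974 to 3430, 3284 to 3520 and 3475 to 3666. The table has no detection calls, so no defining marker could be placed at 0, and the part of these other markers in the histone results was not tested. In a bulk sample, a lower share of cycling cells and less histone RNA per cell cannot be told apart.

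The 71 genes had mean signals between 2.94 and 12.04. Of them, 32 had a mean of 7 or above, a line drawn after the values were seen to set aside dim genes, and 4743 of all 17687 genes did so. The brighter members were 28 of the 61 clustered genes, of every family but with only H3C2 among the H3 genes, and 4 of the 10 variants (H2AX, H2AZ1, H2AZ2 and H3-3B).

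**Figure D1:**
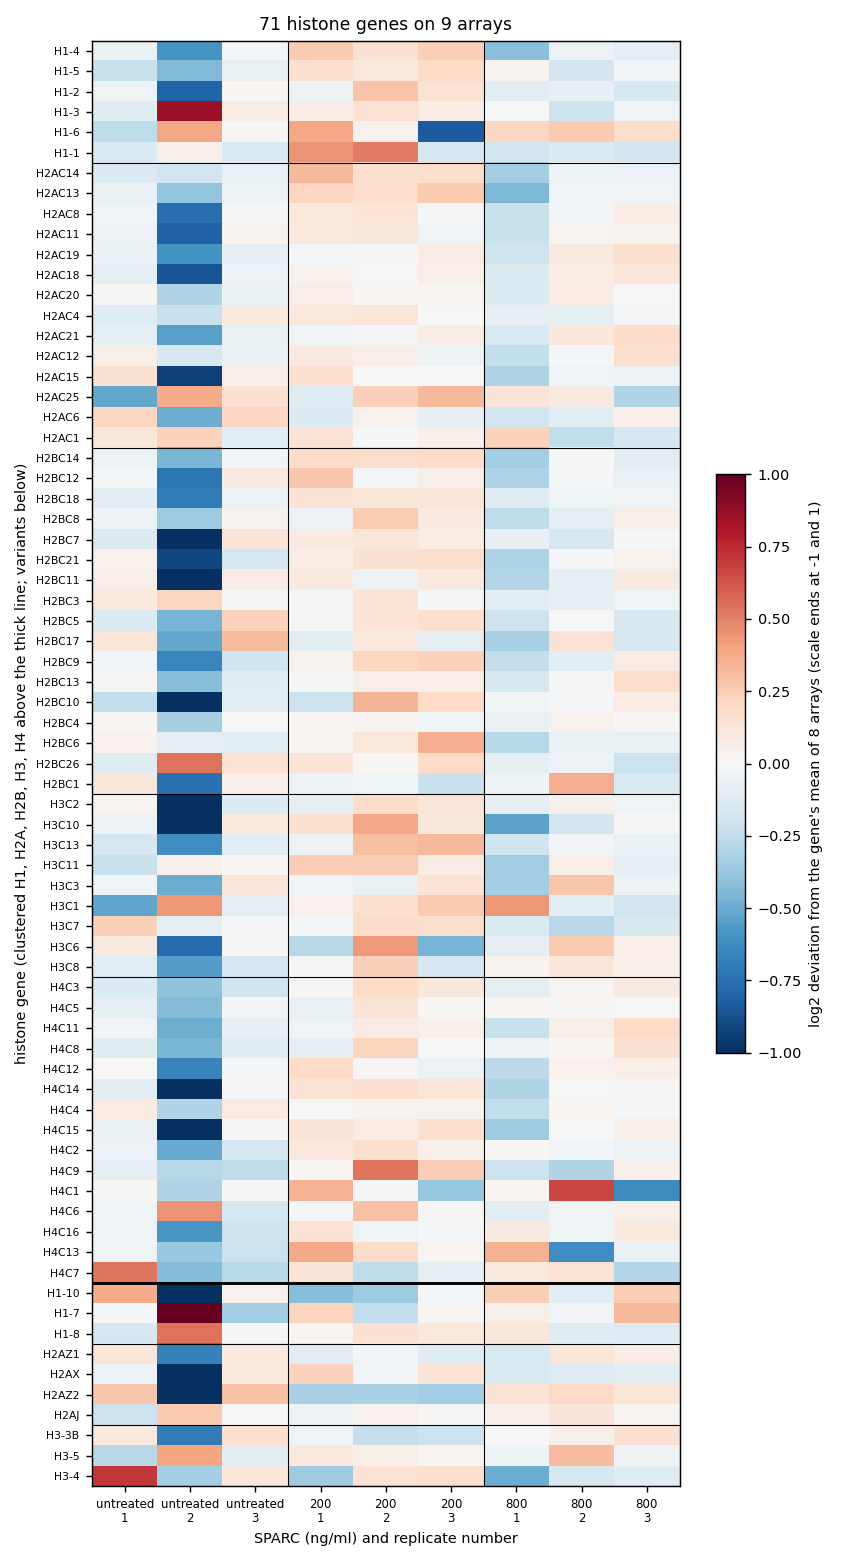
Each row is a histone gene and each column an array, and colour is the log2 deviation from that gene's mean over the 8 arrays other than untreated replicate 2 (red higher, blue lower, colours ending at -1 and 1). Most clustered rows are red in the 200 ng/ml columns and pale or blue at 800 ng/ml, untreated replicate 2 is blue for most brighter genes, and H2AZ2 runs the other way at 200 ng/ml.

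Clustered histone genes read slightly higher in cells given 200 ng/ml SPARC than in untreated cells, although no single gene passed the test. Of the 71 histone genes, 57 had a higher mean at 200 ng/ml, against 54.1% of all genes, with a median log2 difference of 0.23 against 0.03 over all genes. On 23 of the 71 the 3 arrays at 200 ng/ml all lay above the 3 untreated ones, against 3.92% of all genes, and on 0 they all lay below, against 3.06%. All 23 were clustered genes, of which 53 of 61 were higher, with a median of 0.28. At a Benjamini-Hochberg adjusted p under 0.05 from limma, 0 of the 71 were called, as were 0% of all genes (percent called 0), and the smallest adjusted p was 0.966. At an unadjusted p under 0.05, 4 members were higher (0.741% of all genes) and 0 lower (1.04%).

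Without untreated replicate 2 the clustered genes were still mostly higher at 200 ng/ml, by less: 48 of 61 were higher, with a median of 0.11. Then 53 of 71 members were higher (47.2% of all genes), the median was 0.11 against -0.02 over all genes, and 27 members lay above both remaining untreated arrays (13.8% of all genes) while 8 lay below (17.8%). Unadjusted p-values were under 0.05 for 5 members that were higher (5.29% of all genes) and 3 that were lower (6.03%), and again 0 were called. All 28 brighter clustered genes were higher at 200 ng/ml with all arrays (median 0.35), and 26 of 28 without replicate 2 (median 0.11). Over the 4743 genes of that brightness the medians were 0.18 and -0.07, and 83.5% and 31.9% were higher. The contrast with genes of like brightness was thus smaller than that with all genes when all arrays were used, and larger without replicate 2.

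**Figure D2:**
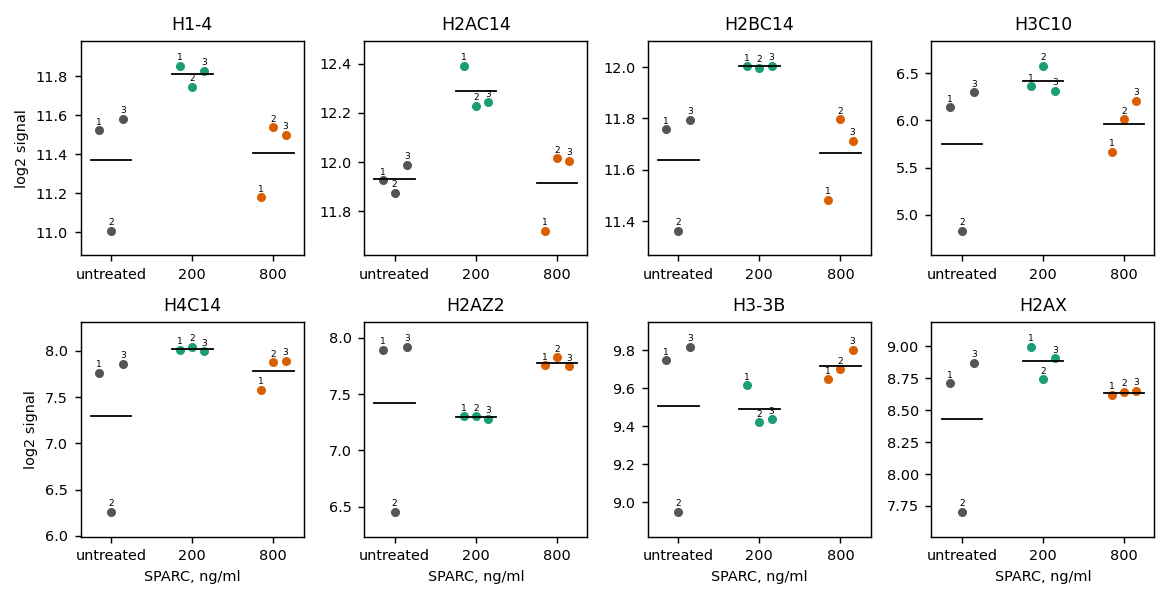
Points are the log2 signals of single arrays for 8 histone genes (replicate number beside each point), by SPARC dose in ng/ml, and bars are group means of 3 arrays. H1-4, H2AC14, H2BC14, H3C10 and H4C14 lie above all other arrays at 200 ng/ml, H2AZ2 and H3-3B lie below all but untreated replicate 2, and H2AX overlaps with untreated cells.

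The linker histones bind DNA between nucleosomes and compact it. H1-4, among the main somatic forms, had log2 signals of 11.86, 11.75 and 11.83 at 200 ng/ml, against 11.52, 11.01 and 11.58 in untreated cells. The groups did not overlap, and the difference was 0.44 ± 0.21 (SE, n = 3 each; limma adjusted p = 0.966), or 0.26 ± 0.13 without replicate 2. H1-5, which also did not overlap, had 9.27, 9.21 and 9.31 at 200 ng/ml and 8.88, 8.66 and 9.03 in untreated cells, a difference of 0.41 ± 0.18, or 0.31 ± 0.12 without replicate 2. H1-2 differed by 0.40, or 0.14 without replicate 2, with its lowest array at 200 ng/ml (8.28) below 2 of the 3 untreated arrays (8.29, 7.53 and 8.36). H1-1 (4.28, 4.35 and 3.66 at 200 ng/ml, against 3.68, 3.88 and 3.68) was split between arrays. Over the 6 H1 genes the median was 0.37, or 0.20 without replicate 2.

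H2A and H2B enter the nucleosome as dimers of the pair. H2AC14 gave 12.39, 12.23 and 12.24 at 200 ng/ml, against 11.93, 11.88 and 11.99 in untreated cells, which is 1.28-fold. Its untreated replicate 2 was close to its neighbours, so leaving that array out changed the difference little, to 0.33 ± 0.13 against 0.36 ± 0.18 (n = 3 each). H2BC14, which shares its promoter region, gave 12.004, 11.997 and 12.006 at 200 ng/ml, against 11.76, 11.36 and 11.80, a difference of 0.36 ± 0.19, or 0.23 without replicate 2. H2AC13, the other H2A gene above all 6 remaining arrays, had 10.88, 10.84 and 10.92 at 200 ng/ml, against 10.59, 10.26 and 10.60, and differed by 0.39 ± 0.19, or 0.28 without replicate 2. Not every bright copy separated: H2BC12 had 11.38, 11.10 and 11.17 at 200 ng/ml, against 11.10, 10.38 and 11.21, with overlap. H2BC9 had 6.44, 6.63 and 6.64, against 6.38, 5.75 and 6.205, and did not overlap (0.46 ± 0.21, or 0.28 without replicate 2). For H2BC10, with the smallest unadjusted p among the H2B genes, 5.78, 6.33 and 6.19 at 200 ng/ml overlapped 5.75, 4.83 and 5.87 in untreated cells. Beside the family counts that follow stand 54.1% of all genes higher and 3.92% higher without overlap. Of 14 H2A genes 12 were higher, 7 of them without overlap (median 0.26, or 0.09 without replicate 2), and of 17 H2B genes 14 were higher, 4 without overlap (median 0.22, or 0.10).

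The 2 largest exceptions in these families were dim genes. H2AC6 had 4.74, 4.92 and 4.80 at 200 ng/ml, against 5.09, 4.38 and 5.09 in untreated cells, and without replicate 2 its groups did not overlap (difference -0.27 ± 0.12). H2BC17 differed by -0.25 in the same way, with 6.39, 6.61 and 6.42 at 200 ng/ml, against 6.62, 5.99 and 6.82. With all arrays they differed by -0.03 and -0.01, so the size of these differences rests on that untreated array.

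H3 and H4 form the tetramer at the centre of the nucleosome. H3C10 had 6.37, 6.58 and 6.31 at 200 ng/ml, against 6.14, 4.83 and 6.30 in untreated cells, a difference of 0.67 ± 0.34 that was 0.20 without replicate 2. H3C13 had the smallest unadjusted p of all members, 0.0354, with 5.67, 6.02 and 6.04 at 200 ng/ml, against 5.55, 5.10 and 5.61 (difference 0.49 ± 0.20, n = 3 each, limma adjusted p = 0.966, or 0.33 ± 0.14 without replicate 2). H3C2, the only brighter H3 gene, had 7.70, 7.98 and 7.92, against 7.82, 6.57 and 7.66, and overlapped. All 9 H3 genes were higher, 3 without overlap, and the median was 0.24, or 0.16 without replicate 2.

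H4 genes nearly all encode the same protein from separate copies. H4C14 had 8.01, 8.05 and 7.998 at 200 ng/ml, against 7.77, 6.26 and 7.86 in untreated cells, which is 1.65-fold with all arrays (0.72 ± 0.35) and 0.20 ± 0.13 on the log2 scale without replicate 2. Its identical-promoter neighbour H4C15 had 7.94, 7.89 and 7.98, against 7.75, 6.19 and 7.80, nearly the same pattern. H4C3 (11.82, 11.99 and 11.91 at 200 ng/ml, against 11.66, 11.40 and 11.60) depended less on replicate 2, with 0.35 ± 0.17 and 0.27 ± 0.12. H4C9, a dim gene, had 4.95, 5.47 and 5.18, against 4.85, 4.66 and 4.68, and differed by 0.47 ± 0.20, or 0.44 ± 0.17 without replicate 2. Of 15 H4 genes 14 were higher, 7 without overlap, with a median of 0.28, or 0.16.

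By place in the genome, the clustered genes lay in RefSeq in groups of 32 and 17 on chromosome 6, an inner group of 9 and an outer group of 2 on chromosome 1, and 1 on chromosome 12 (H4C16). H3-4, counted by symbol among the variants, also lay in the outer chromosome 1 group. The 9 of the inner chromosome 1 group (H2AC18, H2AC19, H2AC20, H2AC21, H2BC18, H2BC21, H3C13, H4C14 and H4C15) were all higher at 200 ng/ml without overlap, with and without untreated replicate 2, and their medians were 0.42 and 0.17. H2BC18 showed the tightest of these values, 11.13, 11.11 and 11.11 at 200 ng/ml, against 10.88, 10.29 and 10.93. The group of 32 had 6 genes higher without overlap and medians of 0.21 with all arrays and 0.10 without replicate 2, and the group of 17 had 8 such genes and medians of 0.34 and 0.09, so that the order of these groups turned. Over all genes 3.92% were higher without overlap, or 13.8% without replicate 2, and of those with a mean of 7 or above 8.03% and 9.87%. The differences between locations were not tested, and 8 of the 9 inner chromosome 1 genes were among the brighter ones.

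The variants had no common direction. Among the 10, 4 were higher and 6 lower at 200 ng/ml (median -0.01), or 5 and 5 without replicate 2 (median -0.05). H2AZ2, a gene for H2A.Z, gave 7.30, 7.30 and 7.28 at 200 ng/ml, against 7.90, 6.45 and 7.92 in untreated cells. With all arrays the difference was -0.13 ± 0.33, because the untreated values spread over both sides. Without replicate 2 it was -0.61 ± 0.10 (95% interval -0.85 to -0.38), or 0.654-fold, with an unadjusted p of 0.0002 and a limma adjusted p of 0.309, so that it was not called. H2AZ1, the other H2A.Z gene, had 9.23, 9.32 and 9.22, against 9.46, 8.67 and 9.44, and was likewise below both remaining untreated arrays (difference -0.20). H3-3B, which encodes H3.3, had 9.62, 9.42 and 9.44, against 9.75, 8.95 and 9.82, and differed by -0.01 with all arrays and -0.29 ± 0.12 without replicate 2. H1-10, a linker histone outside the clusters, had 5.66, 5.73 and 6.07, against 6.46, 4.76 and 6.13, and differed by 0.04 and -0.47. All 4 were near 0 with all arrays, apart from the wider spread of H2AZ2, and lower without replicate 2. Without that array 17.8% of all genes, and 31.0% of those with a mean of 7 or above, were lower without overlap. Of the latter, which include H2AZ1, H2AZ2 and H3-3B, 31.9% were higher, with a median of -0.07.

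H2AX, whose message can end in either the stem-loop or a poly(A) tail, had the highest difference of the variants when all arrays were used, but not without replicate 2, when H3-5 was highest (0.26). H2AX had 8.999, 8.74 and 8.91 at 200 ng/ml, against 8.71, 7.70 and 8.87 in untreated cells, and differed by 0.45 ± 0.28, or 0.09 without replicate 2. The groups overlapped.

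**Figure D3:**
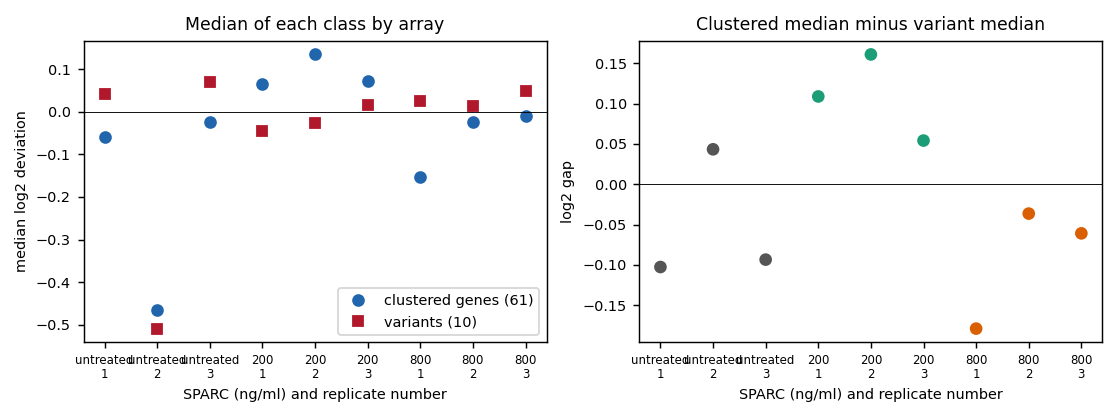
Left, the median log2 deviation of the 61 clustered genes (circles) and the 10 variants (squares) on each array, by SPARC dose and replicate. Right, the clustered median minus the variant median, which lies between -0.10 and 0.04 in untreated cells, between 0.05 and 0.16 at 200 ng/ml and between -0.18 and -0.04 at 800 ng/ml.

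Setting clustered genes against variants within each array partly cancels what both share on that array. The clustered median minus the variant median was -0.10, 0.04 and -0.09 on the untreated arrays, 0.11, 0.16 and 0.05 at 200 ng/ml and -0.18, -0.04 and -0.06 at 800 ng/ml. The arrays at 200 ng/ml were the highest of the 9, with replicate 3 (0.05) just above untreated replicate 2 (0.04). Among brighter genes only, the gap was 0.17, 0.25 and 0.26 at 200 ng/ml and -0.15, -0.09 and -0.09 at 800 ng/ml, but untreated cells gave -0.17, 0.29 and -0.16, so that replicate 2 was then the highest array. The groups then overlapped through that array alone.

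In cells given 800 ng/ml the histone genes were close to untreated cells once untreated replicate 2 was left out, and mostly higher with all arrays. With all arrays 54 of 71 members were higher, against 54.6% of all genes, and the median was 0.12 against 0.04. Of the 28 brighter clustered genes 26 were then higher (median 0.21), against 88.8% of all genes of that brightness (median 0.25). Without untreated replicate 2, 30 of 71 were higher (48.2% of all genes) and the median was -0.03 against -0.01. Members without overlap were 5 higher (6.08% of all genes) and 2 lower (5.14%), or 8 higher (10.5%) and 9 lower (11.8%) without replicate 2. With 800 ng/ml replicate 1 left out instead, 16 were higher (10.5% of all genes) and 3 lower (9.15%) without overlap. By limma 0 members were called and 0% of all genes, with a smallest adjusted p of 0.659. At an unadjusted p under 0.05, 0 were higher (1.53% of all genes) and 0 lower (2.64%), and without replicate 2 these counts were 0 (2.53%) and 3 (2.83%).

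How the genes that were high at 200 ng/ml stood at 800 ng/ml depended on untreated replicate 2. Of the 12 members above all 6 other arrays at 200 ng/ml, 10 were higher at 800 ng/ml than in untreated cells with all arrays (median 0.20, from -0.07 to 0.49) and 3 without replicate 2 (median -0.04, from -0.25 to 0.09). The inner chromosome 1 group had medians of 0.27 and 0.01, with 9 and 6 of 9 higher. H4C14 differed by 0.49 ± 0.35 with all arrays and -0.03 ± 0.13 without replicate 2. H2AC14 had 11.72, 12.01 and 12.01 at 800 ng/ml, against 11.93, 11.88 and 11.99 in untreated cells (difference -0.02 ± 0.18, n = 3 each). H1-4 had 11.18, 11.54 and 11.50, against 11.52, 11.01 and 11.58 (0.03 ± 0.21). Replicate 1 was the lowest 800 ng/ml array for both, and over the 61 clustered genes its median deviation was -0.15, against -0.02 and -0.01 on replicates 2 and 3. Replicates 2 and 3 were also the arrays with high neural and glial markers, whose part in these values was not tested. H4C3 was higher, with 11.71, 11.83 and 11.89 at 800 ng/ml, against 11.66, 11.40 and 11.60, and no overlap (0.26 ± 0.17, or 0.18 ± 0.12 without replicate 2). The members with the smallest unadjusted p at this dose were H2BC10, H3C8, H4C16, H2AC18 and H3-4. H2BC10 had 5.96, 5.97 and 6.07 at 800 ng/ml, against 5.75, 4.83 and 5.87 in untreated cells, without overlap (0.52 ± 0.27, or 0.19 without replicate 2). H3C8, a dim gene, had 3.44, 3.53 and 3.46, against 3.30, 2.84 and 3.23, also without overlap. H4C16 (4.26, 4.13 and 4.27, against 4.14, 3.59 and 3.96) and H2AC18 (9.59, 9.81 and 9.86, against 9.64, 8.87 and 9.68) overlapped. For all 4 of these higher genes untreated replicate 2 was the lowest array. H3C7, a dim H3 gene, was lower without overlap, with 4.13, 3.99 and 4.11, against 4.51, 4.17 and 4.26 (-0.23 ± 0.18). The 3 members with an unadjusted p under 0.05 without replicate 2 were H3-4, H2AC6 and H3C7, all lower and all dim, at limma adjusted p of 0.895 to 0.918.

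Set against 200 ng/ml, the 800 ng/ml arrays were lower for most clustered genes. Of the 71 members 15 were higher and 56 lower, where 52.3% of all genes were higher, with a median of -0.12 against 0.01. On 23 members all 3 arrays at 800 ng/ml lay below all 3 at 200 ng/ml (9.72% of all genes), and on 2 they lay above (12.1%). Limma called 0 members and 0% of all genes, with a smallest adjusted p of 0.999. At an unadjusted p under 0.05, 0 members were higher (1.12% of all genes) and 0 lower (1.29%). With untreated replicate 2 left out of the fit, which changes no value here but narrows the error, these were 2 higher (7.68%) and 12 lower (7.58%), with 0 called. The 200 ng/ml arrays enter both this comparison and the one with untreated cells, so the lower values here and the higher values there are not separate evidence.

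Of the clustered genes 53 of 61 were lower (median -0.13), and of the brighter ones 27 of 28 (median -0.14). H1-4 at 11.18, 11.54 and 11.50 at 800 ng/ml lay below 11.86, 11.75 and 11.83 at 200 ng/ml (difference -0.40 ± 0.21, n = 3 each, limma adjusted p = 0.999). H2AC14 differed by -0.37 ± 0.18, H2AC13 by -0.39 ± 0.19, and H2BC14 (11.48, 11.80 and 11.71 at 800 ng/ml) by -0.34 ± 0.19, all without overlap. H3C10, with 5.67, 6.01 and 6.21, differed by -0.46 ± 0.34. H4C9 (4.72, 4.64 and 4.98) and H1-1 (3.65, 3.69 and 3.65) had 2 of the smallest unadjusted p-values, with -0.42 ± 0.20 and -0.43 ± 0.21, but each overlapped with the 200 ng/ml arrays. Family medians were -0.24 for H1, -0.12 for H2A, -0.19 for H2B, -0.11 for H3 and -0.10 for H4. In the group of 17 genes on chromosome 6 all were lower (median -0.22). Without 800 ng/ml replicate 1, the lowest array, the clustered median was -0.10, 43 of 61 were lower, 25 of the 71 members were higher (52% of all genes), and 27 members still lay below without overlap (14.5% of all genes then) and 6 above (17.1%). Limma then called 0 members and 0.0848% of all genes.

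Of the variants 7 of 10 were higher at 800 than at 200 ng/ml (median 0.09), where 52.3% of all genes were higher (median 0.01). Of the 4743 genes with a mean of 7 or above, 66.4% were higher, with a median of 0.07. Among these brighter genes, which include H2AX, H2AZ2 and H3-3B, 970 were higher without overlap and 332 lower. H2AZ2 had 7.76, 7.83 and 7.75 at 800 ng/ml, against 7.30, 7.30 and 7.28 at 200 ng/ml, a wide separation of arrays that agreed closely within each group. The difference was 0.48 ± 0.33 in the fit of all arrays, whose error is shared with untreated replicate 2, and 0.48 ± 0.09 without that array (limma adjusted p = 0.167). H3-3B had 9.65, 9.70 and 9.80, against 9.62, 9.42 and 9.44, also without overlap. H2AX was the variant that was lower without overlap, at 8.62, 8.64 and 8.65, against 8.999, 8.74 and 8.91.

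**Figure D4:**
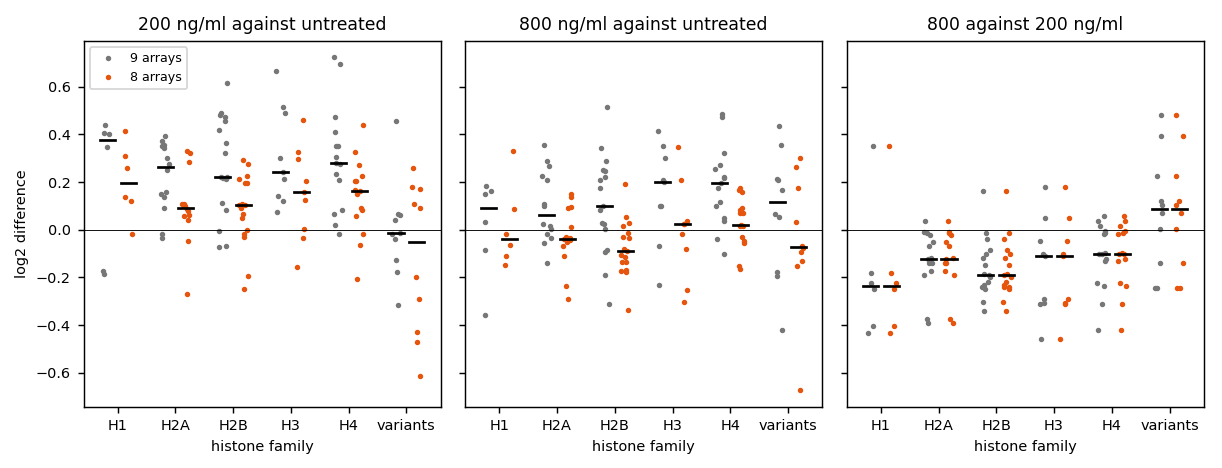
Each point is the log2 difference of a histone gene in 1 of the 3 comparisons, by family, from all 9 arrays (grey) or without untreated replicate 2 (orange), and bars are medians. Clustered families lie above 0 for 200 ng/ml against untreated and below 0 for 800 against 200 ng/ml, and the variants scatter around 0.

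Across all 9 arrays, 12 members were higher at 200 ng/ml than on all 6 other arrays, which held for 1.33% of all genes, and 0 were lower than all 6 (0.95%). They were H1-4, H1-5, H2AC13, H2AC14, H2BC14, H2BC18, H2BC21, H3C10, H3C11, H4C14, H4C15 and H4C2, so that each clustered family was among them and the variants were not. With untreated replicate 2 set aside, 12 members were higher at 200 ng/ml than on the other 5 arrays (5.24% of all genes), a count that could not have fallen. H2AZ2 and H3-3B were the 2 members lower at 200 ng/ml than on those 5 arrays, a pattern that 7.69% of all genes had.

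The brighter clustered genes varied together from array to array. Over the 8 arrays other than untreated replicate 2, the median correlation of the 378 pairs among the 28 genes was 0.59 and 96.6% of pairs were above 0, where pairs of all genes with a mean of 7 or above had a median of 0.08 and 56.1% above 0. The points are arrays of 3 dose groups and share normalization, and copies may share probes. Each gene was then compared with the mean of the 28 genes on the same 8 arrays, its own values being left out. By this resemblance H4C14 (r = 0.99) and H2AC13 (0.96) were the closest and H4C5 (0.23) the farthest of the 28. H4C5 was nearly flat, with 11.41, 11.06 and 11.47 in untreated cells, 11.42, 11.63 and 11.51 at 200 ng/ml and 11.51, 11.51 and 11.50 at 800 ng/ml. Of the variants, which are not part of that mean, H2AX had 0.58, H3-3B -0.50, H1-10 -0.68 and H2AZ2 -0.71. The other variants lay between -0.03 (H2AZ1) and 0.35 (H3-5).

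Histone forms made in germ cells were dim and showed no common direction. They are the testis linker histones H1-6 and H1-7, the oocyte linker histone H1-8 and the testis forms H2AC1, H2BC1, H3-4 and H3-5. At 200 ng/ml 2 of these 7 were higher and 5 lower (median -0.04), with none free of overlap when all arrays were used, and at 800 ng/ml 3 were higher and 4 lower (median -0.14) against untreated cells. Without replicate 2 the medians were 0.06 at 200 ng/ml and 0.03 at 800 ng/ml, with 4 higher and 3 lower in both. H3-4 had 3.66, 4.15 and 4.17 at 200 ng/ml and 3.52, 3.85 and 3.89 at 800 ng/ml, against 4.72, 3.67 and 4.13 in untreated cells, so the untreated arrays alone covered nearly the whole range. Another 6 histone genes outside the rule had a median of -0.06 at 200 ng/ml against untreated cells.

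Genes that supply histones and genes of S phase were mostly lower at 200 ng/ml once untreated replicate 2 was left out, where the clustered genes were mostly higher. In the list of histone supply factors (13 of 13 measured), 11 were higher at 200 ng/ml with all arrays (median 0.14), and 1 of 13 without untreated replicate 2 (median -0.18), against all-gene medians of 0.03 and -0.02. Of the genes with a mean of 7 or above, 31.9% were higher without replicate 2, with a median of -0.07. Such brighter genes made up 6 of the 13 supply factors, 11 of 14 chaperones, 17 of 21 S phase genes and 14 of 14 genes of G2 and mitosis. NPAT had 5.77, 5.52 and 5.75 at 200 ng/ml, against 6.02, 4.54 and 6.07 in untreated cells, below both remaining untreated arrays (difference -0.36 ± 0.14). SLBP, the stem-loop binding protein, had 6.68, 7.33 and 7.23, against 7.16, 5.999 and 7.12, with overlap. Of the 14 of 16 histone chaperones measured, 3 were higher without replicate 2 and 9 lay below without overlap (median -0.17), against 17.8% of all genes below without overlap and 31.0% of brighter ones. Of the 21 of 22 S phase genes measured, 5 were higher without that array (median -0.15), with all arrays 18 (median 0.09). Among the higher ones were TK1, the salvage kinase of thymidine, and CDT1, the licensing factor of replication origins. They differed by 0.33 ± 0.20 and 0.40 ± 0.20, or 0.14 and 0.21 without replicate 2. MCM6, with the smallest unadjusted p of this list without replicate 2, was lower. It differed by -0.11 ± 0.39 with all arrays and -0.68 ± 0.16 without that array. PCNA, the sliding clamp of DNA polymerase, had 10.12, 10.25 and 10.36 at 200 ng/ml, against 10.32, 9.79 and 10.35 in untreated cells. All 14 genes of G2 and mitosis were higher with all arrays (median 0.22) and 5 without replicate 2 (median -0.09). Limma called 0 genes of these lists in all 3 comparisons.

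Against 200 ng/ml, the 800 ng/ml arrays had medians of 0.07 for the supply factors, 0.09 for chaperones, 0.07 for S phase and 0.08 for G2 and mitosis, where the clustered histone genes had -0.13, all genes 0.01 and all genes with a mean of 7 or above 0.07. ATRX, the remodeller that places H3.3 with DAXX, was higher by 0.70 ± 0.34. ZNF473, a zinc finger protein of histone pre-mRNA 3' end processing, was low at the higher dose: 6.44, 6.33 and 6.61 in untreated cells, 6.64, 6.28 and 6.13 at 200 ng/ml, and 6.09, 5.71 and 5.70 at 800 ng/ml. Its arrays at 800 ng/ml lay below all others, and the difference from untreated cells was -0.63 ± 0.21 (n = 3 each, limma adjusted p = 0.659).

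**Figure D5:**
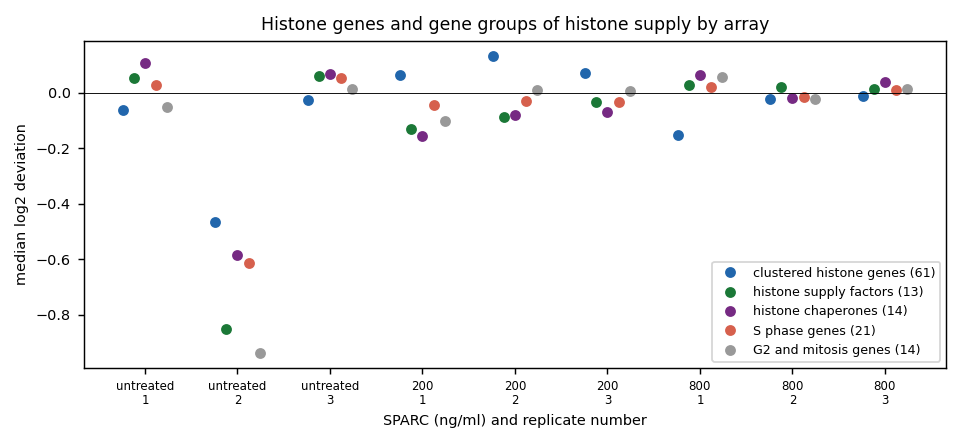
Points are the median log2 deviation, from each gene's mean over the 8 arrays other than untreated replicate 2, of the 61 clustered histone genes and 4 gene groups on each array. At 200 ng/ml the clustered histone genes lie above 0 on all 3 arrays, and untreated replicate 2 is low for every group shown.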

How the data were processed

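The authors deposited 1 value per transcript cluster and array for 9 biotin-labelled arrays. The deposited values are log2 signals, a scale read from their range and stated in no label, and the authors' steps before deposit are known only from the submitters' processing notes, which name R 3.0. The normalization is not given in the sources used here. The extraction protocol in the labels does not mention the 200 ng/ml cells, which the sample labels do. Of 21448 clusters, 17709 had 1 gene symbol, 0 several and 3739 none. The cluster with the highest mean was kept per gene, which left 17687 genes. All 71 symbols equal RefSeq symbols. Coordinates were taken from RefSeq for the promoter windows and for the places of the 71 genes in the genome.

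Values were fitted as deposited with limma 3.58.1 in R 4.3.3, all 3 groups together, with Benjamini-Hochberg adjustment over all genes, and genes were called at an adjusted p under 0.05. The fit was tested on simulated data. Ratios are 2 to the power of the log2 difference, and intervals are 95%. The number of arrays limits the precision.

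The members, the gene lists and the tests were chosen with earlier results of these data known. Genes given array by array were, per family, the 2 with the highest mean, the 5 with the smallest unadjusted p in each comparison and the largest exceptions, and from the other lists up to 4 genes with the smallest unadjusted p besides SLBP, NPAT and PCNA. H3-3B and H2AZ1 are the brightest variants, and the promoter examples, H2AZ2, H2AX, H1-10, H1-2, H4C14, H4C15, H2BC18 and H3C7 were singled out after their values were seen. The brightness line and the chromosome groups were chosen after values were seen. Replicate numbers were taken from the labels, and deviations of same-numbered arrays correlated at -0.253 to 0.113, so the numbers were not treated as pairing samples. Alternatives were quantile normalization, median centring, leaving out dim genes, averaging clusters, another prior, the 6 arrays of a comparison alone, a replicate block, array weights and leaving out each array.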

Additional observations from a re-analysis of the deposited data

How the results depend on the processing

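The 3 comparisons were recomputed under each alternative, in the order 200 against untreated, 800 against untreated and 800 against 200 ng/ml. Of 914 recomputed values of named genes, 872 kept their direction, 42 turned and 10 had an adjusted p under 0.05. Several alternatives cannot change a gene's log2 difference: another prior, the 6 arrays of a comparison alone, the replicate block and leaving out dim genes. Nor can leaving out an array of the group outside a comparison, or averaging clusters for a gene with 1 cluster. Part of the 872 was therefore fixed in advance. Array weights gave untreated replicate 1 a weight of 10.7 and replicate 2 one of 0.0399. They moved the called genes from 0 to 1971, 732 and 6 of 17687. Called histone genes then numbered 13 and 2 of 71 in the first 2 comparisons. Of the 13, H1-5, H2AC14, H2AC25, H2BC10, H3C1, H3C11, H3C13 and H4C9 were higher at 200 ng/ml. The variants H1-10, H2AZ2, H3-3B and H3-4 and the clustered gene H4C7 were lower. The 2 at 800 ng/ml, H3-4 and H3C7, were lower. Under those weights the medians at 200 ng/ml were 0.13 for all members, 0.13 for clustered genes and -0.10 for variants, with H2AZ1 at -0.21, H1-10 at -0.53 and NPAT at -0.33. The medians at 800 ng/ml against untreated were -0.0071, -0.00062 and -0.046, with H1-4 at -0.085, H2AC14 at 0.014, H2BC14 at -0.069, H2AZ2 at -0.11 and H3-3B at -0.020. Since these weights rest almost wholly on a single untreated array, the calls compare the treated cells mainly with that array. Quantile normalization put the variant medians at -0.077, -0.018 and 0.059, the clustered minus variant gap at 0.11 for 800 ng/ml against untreated, H2AZ1 at -0.079 for 200 ng/ml, and H1-4 and H2BC14 at -0.045 and -0.053 for 800 ng/ml against untreated. Median centring put the variant medians of the comparisons with 800 ng/ml at 0.17 and 0.13 and H2AC14 at 0.032, and leaving out the dimmest 25% of genes put the variant median at 0.17 for 800 ng/ml against untreated. Leaving out 1 array at a time gave 0 to 12 called genes for 800 ng/ml against untreated and 0 to 15 against 200 ng/ml, the most without 800 ng/ml replicate 1. Leaving out that array together with untreated replicate 2, a pair chosen after seeing the data, gave 24 and 25. None of these were histone genes. The ranges that follow cover the single arrays and this pair. At 200 ng/ml the medians ran from 0.11 to 0.32 for members, 0.11 to 0.34 for clustered genes and -0.052 to 0.10 for variants, and the gap from 0.16 to 0.33. At 800 ng/ml against untreated they ran from -0.031 to 0.23, -0.031 to 0.23 and -0.073 to 0.17, and the gap from -0.015 to 0.085. Against 200 ng/ml the variant median ran from 0.044 to 0.11 and the gap from -0.24 to -0.16. At 200 ng/ml H1-10 ran from -0.47 to 0.38, H2AZ1 from -0.20 to 0.20, H2AZ2 from -0.61 to 0.12, H3-3B from -0.29 to 0.14, NPAT from -0.36 to 0.41 and SLBP from -0.062 to 0.52. At 800 ng/ml against untreated H1-4 ran from -0.15 to 0.15, H2AC14 from -0.067 to 0.079, H2BC14 from -0.11 to 0.12, H2AZ2 from -0.13 to 0.60, H3-3B from -0.067 to 0.37 and H4C14 from -0.031 to 0.77. The cause of the other shifts was not tested. The table gives no signal over background, so dim genes have no known floor. The offsets planned for linear values were not run because the values are log2.

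With the replicate number as a block, 0 genes were called in each of the 3 comparisons. The replicate numbers are the same in every group, so the block cannot change a log2 difference. The medians of the histone members, 0.23, 0.12 and -0.12, were therefore fixed in advance and test nothing here. The numbers were shared labels only, with correlations of deviations between -0.253 and 0.113, and the block changed no call.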
